A study of Homo sapiens with 2 samples.

Results

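The 36 genes described here are the 15 RNAs of the human mitochondrial genome that the files list as ribosomal RNA (rRNA) or mRNA, and 21 nuclear genes whose proteins make, cut, stabilise or modify those RNAs. They were chosen by symbol. Each was found on 1 row of the deposited count tables, among 52402 gene symbols, and all 36 had a mean of at least 1 count per 1000000 (CPM). The study measured RNA by sequencing in DLD1, a human colorectal adenocarcinoma cell line, in 1 control library whose genotype is labelled WT and 1 library labelled HERV-R KO, a knockout of an endogenous retrovirus of the human genome. By the series title, the study concerned what loss of its env gene does to tumour-like traits of these cells.

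Both groups carry the same treatment text: lipofection of a Cas9 vector with an sgRNA vector, then hygromycin selection of colonies. The sources used here do not say which vectors the control received, whether a library stands for 1 clone, or whether poly(A) RNA was selected. With 1 library per group there is no spread between replicates and no test, so every interval below is a 95% interval that covers counting error only. RNA was taken from whole cultures, so fewer cells of a kind and less RNA per cell cannot be told apart.

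The control library held 21881122 counts and the other 16406308. ERV3-1, the gene taken to be the HERV-R env locus, did not have a lower CPM in the library labelled HERV-R KO, with 127 counts (5.80 CPM) in control cells and 125 counts (7.62 CPM) in the other. That library is therefore called KO-labelled (in the plots, knockout-labelled) throughout, and every direction rests on its label. Of the 12 colon epithelium markers, 9 were measured: CDX2, a transcription factor of the intestinal epithelium, stood at 99.4 CPM in control cells and 298 CPM in KO-labelled cells. Of the simple-epithelium keratins, KRT18 stood at 4967 and 1741 CPM, KRT19 at 664 and 273 CPM and KRT8 at 4138 and 1875 CPM, so 3 of the 9 were at least 2-fold lower and 1, CDX2, at least 2-fold higher. KRT8 lies outside the rule for named genes, as do the next: EPCAM had 701 and 750 CPM, and KRT20 and CDX1 had 0 counts in both. Summed markers of fibroblasts (10 genes) stood at 5.80 and 2.86 CPM, of blood cells (10 genes) at 2.79 and 1.40 CPM and of endothelium (6 genes) at 1.19 and 1.46 CPM. PTPRC and CD3E, which mark blood cells and are also named outside that rule, had 0 counts in both. The part of the differing epithelial markers in the values below was not tested.

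The mitochondrial genome is a small circle that encodes the rRNAs of the mitochondrial ribosome, a set of tRNAs, and mRNAs for core subunits of the respiratory chain and ATP synthase. Each strand is transcribed as a long precursor by the RNA polymerase POLRMT. The tRNAs that lie between most of the genes are cut out, which frees the rRNAs and mRNAs; these then receive tails, and proteins such as LRPPRC and SLIRP set how long they last. Several of the mRNAs lack a complete stop codon in the DNA, and the poly(A) tail supplies the missing bases.

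The ends of 5 of the mRNAs, with and without this feature, are given because the results turn on these mRNAs: CYTB, ATP8 and COX3 had the highest ratios between the libraries and ND5 the lowest, and ND1 is an mRNA nearer the rest with an incomplete codon of another kind. The sequences are the last 30 bases of the annotated mRNA (GENCODE transcripts, GRCh38, plus strand of the mitochondrial genome), 5′ to 3′, with the bases of the stop codon that the DNA encodes in capitals.
CYTB, MT:15858-15887: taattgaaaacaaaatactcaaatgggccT
COX3, MT:9961-9990: tgtatgtctccatctattgatgagggtctT
ND1, MT:4233-4262: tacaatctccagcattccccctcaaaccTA
ATP8, MT:8543-8572: tcgcttcattcattgcccccacaatccTAG
ND5, MT:14119-14148: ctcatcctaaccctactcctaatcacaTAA
CYTB and COX3 end in a lone T and ND1 in TA, while ATP8 and ND5 carry the whole codon.

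The mitochondrial mRNAs and rRNAs went in opposite directions. The 13 mRNAs together took 2.30% of all counts in control cells and 3.35% in KO-labelled cells, a ratio of 1.46 (1.45 to 1.46). The rRNAs RNR1 and RNR2 together took 0.886% in control cells and 0.360% in KO-labelled cells, 2.46-fold lower (2.44 to 2.48). The control held 0.385 rRNA counts for each mRNA count and the KO-labelled library 0.107, 3.58-fold fewer (3.55 to 3.62), a comparison within each library that needs no scaling between them.

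Over the 36 genes, 3 were at least 2-fold higher in KO-labelled cells (CYTB, HSD17B10 and FASTKD3; 8.33%) and 2 at least 2-fold lower (RNR1 and RNR2; 5.56%). This size rule is read on log2 of the CPM ratio after 1 CPM was added to both, and it says nothing of replicate error. Of all 12644 genes that reached this mean, 6.78% were past it on the higher side and 5.69% on the lower side, so the share of these 36 past the rule was near that of all genes. Every count of genes past the rule in the text that follows is to be read beside these shares of all genes. The log2 ratio was above 0 for 34 of the 36 genes, with a median of 0.46, against 58.1% and a median of 0.12 over all genes compared. That median depends on scaling by library totals. TMM, the upper quartile and the median of gene ratios lower log2 ratios by 0.12, 0.14 and 0.16, and by somewhat less for genes of low CPM, because 1 CPM is added. This leaves 30, 29 and 29 of the 36 above 0 and 2 past the rule on the higher side. Those scalings also turn the share of higher genes among all genes past the rule from 54.4% to 40.6%, 38.5% and 36.5%.

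**Figure D1:**
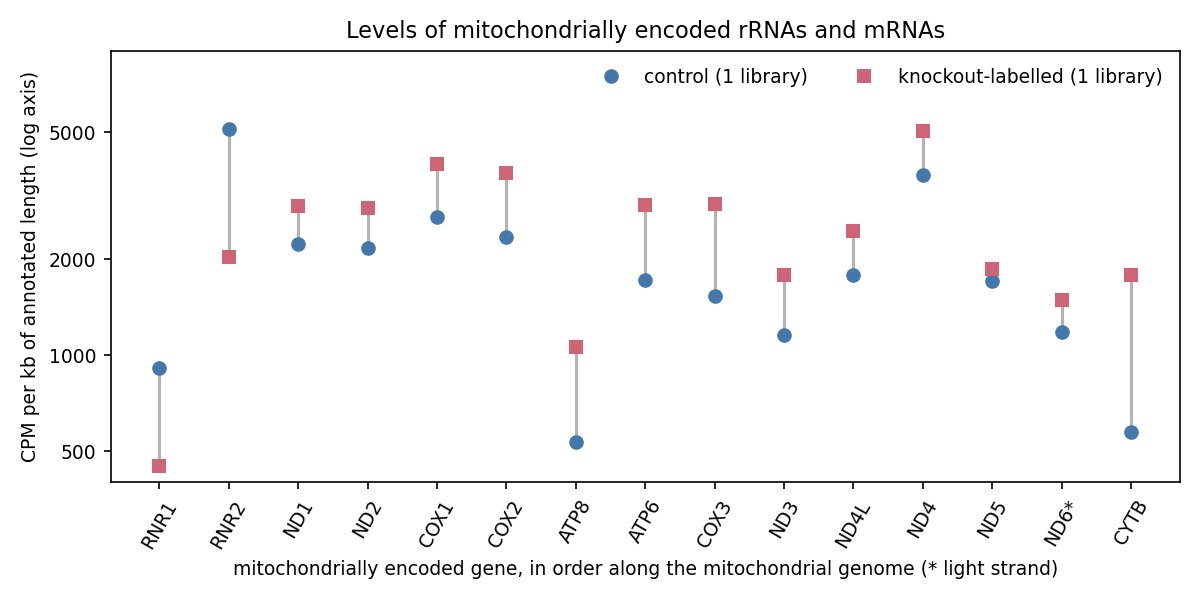
CPM per kilobase of annotated length (log axis) of the 15 mitochondrially encoded RNAs, in genome order, with 1 point per library and a grey line joining the libraries. RNR1 and RNR2 sit lower in KO-labelled cells, the 13 mRNAs sit higher, and CYTB has the longest upward line.

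RNR2, the rRNA of the large subunit of the mitochondrial ribosome (MT 1671 to 3229, plus strand), had 174793 counts (7988 CPM) in control cells and 52040 counts (3172 CPM) in KO-labelled cells. It was 2.52-fold lower there (2.49 to 2.54). RNR1, the small-subunit rRNA (MT 648 to 1601, plus strand), had 19049 counts (871 CPM) in control cells and 7020 counts (428 CPM) in KO-labelled cells, 2.03-fold lower (1.98 to 2.09). Both remained past the rule under each scaling. These rRNAs lie next to each other and are flanked by tRNAs on both sides, yet they differed in size of change: the control held 9.18 RNR2 counts for each RNR1 count and the KO-labelled library 7.41.

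Per kilobase, RNR2 was the most abundant of the 15 in the control (5124 CPM per kilobase) and the ninth in KO-labelled cells (2035). RNR1 stood at 913 and 449 CPM per kilobase, and was the lowest of the 15 in KO-labelled cells.

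Nuclear rRNA as a sum was close to level. The 4 nuclear rRNA genes took 3.32% of counts in control cells and 3.19% in KO-labelled cells, a ratio of 0.961 (0.957 to 0.964), with RNA18S5 at 0.913 and RNA28S5 at 0.980, while RNA5-8S5, much less counted, was at 1.72 and named outside the rule. Of 6 measured nuclear RNAs that carry no poly(A) tail, 0 were past the rule and all 6 had a log2 ratio above 0, for example RN7SL1 of the signal recognition particle (87.3 and 112 CPM). The 22 mitochondrial tRNAs summed to 24 counts in control cells and 29 in KO-labelled cells, too few to describe. The part of library preparation in the rRNA difference was not tested.

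Nuclear copies of mitochondrial sequence can take or share reads. The 13 MTRNR2L genes, nuclear copies of part of RNR2, summed to 50 counts in control cells and 16 in KO-labelled cells. A further 404 pseudogenes, picked by names after the mitochondrial mRNAs or rRNAs, summed to 14 and 26 counts. Both sums are far below the counts of the mitochondrial genes themselves. How reads that match both were assigned is not stated in the sources used here, and their part was not tested.

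CYTB encodes cytochrome b, the only mitochondrially encoded subunit of complex III, the enzyme that passes electrons from ubiquinol to cytochrome c. The gene (MT 14747 to 15887, plus strand) had 14400 counts (658 CPM) in control cells and 33469 counts (2040 CPM) in KO-labelled cells, although the latter was the smaller library. It was 3.10-fold higher there (3.04 to 3.16), and it stayed past the 2-fold rule under each alternative scaling and pseudocount. Per kilobase it moved from the next to lowest of the 15 RNAs (577) to the eleventh (1788).

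The change of CYTB was larger than that of the mRNAs around it. CYTB made up 2.86% of the mRNA counts in control cells and 6.08% in KO-labelled cells, and against the other 12 mRNAs it was 2.20-fold higher (2.16 to 2.25). For each count of ND5, its neighbour 598 bases upstream on the same strand, the control held 0.212 CYTB counts and the KO-labelled library 0.602. For each count of COX3, which stood nearest to it among the longer mRNAs, the change was 1.60-fold (1.56 to 1.64).

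The complex III subunits from the nucleus did not show a difference of that size. Of 9 measured, 0 were past the rule and their median log2 ratio was 0.42. With 6.78% of all genes past the rule on the higher side, a count of 0 among 9 does not set them apart from other genes. UQCRC1, a core subunit, had 247 CPM in control cells and 260 CPM in KO-labelled cells, and UQCRH, the hinge protein, 195 and 197 CPM. The control held 0.632 CYTB counts per nuclear complex III count and the KO-labelled library 1.71, a change of 2.71-fold (2.64 to 2.79).

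Among 6 complex III assembly factors, 1 was past the rule: BCS1L, which inserts the iron-sulfur protein into the complex, had 14.3 CPM in control cells and 30.8 CPM in KO-labelled cells (2.15-fold), but fell short of the rule under the other scalings. The factors of cytochrome b itself were mixed and did not pass: UQCC1 stood at 26.4 and 41.0 CPM, UQCC3 at 14.4 and 27.2 CPM, and UQCC2 at 33.5 and 21.8 CPM. UQCC1, UQCC2 and UQCC3 were picked for mention after their values were seen.

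The other 12 mRNAs had ratios from 1.09 to 1.98, and 0 of them passed the rule. ATP8 and COX3 came closest, with log2 ratios of 0.98 and 0.95. ATP8, a small subunit of ATP synthase, had 2421 counts (111 CPM) in control cells and 3594 counts (219 CPM) in KO-labelled cells, a ratio of 1.98 (1.88 to 2.09). COX3, a core subunit of cytochrome c oxidase (complex IV), had 26396 counts (1206 CPM) and 38380 counts (2339 CPM), a ratio of 1.94 (1.91 to 1.97).

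ATP6, the ATP synthase subunit of the proton channel, had 1169 CPM in control cells and 2015 CPM in KO-labelled cells (1.72; 1.70 to 1.75). ATP8 and ATP6 overlap and share a mature RNA, and ATP6 abuts COX3. The ATP8 count per ATP6 count was 0.0947 in control cells and 0.109 in KO-labelled cells, a change of 1.15 (1.09 to 1.21). How the authors assigned reads in the overlap is not stated in the sources used here.

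The remaining complex IV mRNAs, which encode the catalytic subunits, stood in between. COX1 had 4175 CPM in control cells and 6123 CPM in KO-labelled cells (1.47; 1.45 to 1.48), and COX2 1605 and 2545 CPM (1.59; 1.56 to 1.61). COX1 kept its place in the pool, at 18.1% and 18.3% of the mRNA counts, and its ratio against the other 12 mRNAs was 1.01, with an interval that holds 1.

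The 7 complex I mRNAs showed the smallest ratios as a group, 1.29 for their sum, against 1.58 for the 3 of complex IV and 1.75 for the 2 of ATP synthase. ND3 was the highest of them (401 and 618 CPM; 1.54), followed by ND4L (528 and 726 CPM; 1.37), ND4 (5068 and 6930 CPM; 1.37), ND2 (2262 and 3010 CPM; 1.33) and ND1 (2135 and 2810 CPM; 1.32). ND4L and ND4 lie on a common RNA, and the ND4L count per ND4 count hardly differed, 0.104 against 0.105, a change of 1.01 (0.979 to 1.03).

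ND5 stood apart at the low end. It had 67819 counts (3099 CPM) in control cells and 55554 counts (3386 CPM) in KO-labelled cells, a ratio of 1.09 (1.08 to 1.10) and a log2 ratio of 0.13, which fell below 0 under upper quartile scaling and under the median of gene ratios, but not under TMM. Its share of the mRNA counts was 13.5% in control cells and 10.1% in KO-labelled cells, and against the other 12 mRNAs its ratio was 0.722 (0.714 to 0.730). ND6, the only mRNA copied from the opposite strand, had 619 CPM in control cells and 780 CPM in KO-labelled cells (1.26; 1.23 to 1.29). The library kit marks strand, but the sources used here do not say whether the counting used it, so ND6 reads and reads from the opposite strand may not be separate.

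**Figure D2:**
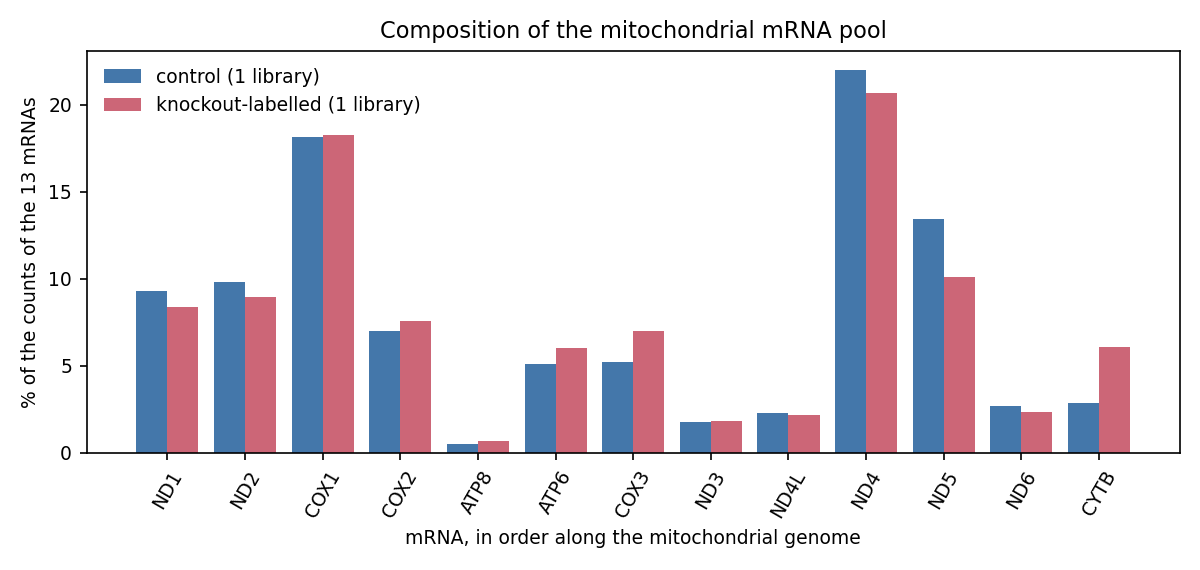
Share of the summed counts of the 13 mitochondrial mRNAs (y axis, percent) taken by each mRNA in genome order, with 1 bar per library. The CYTB bar went from 2.86% to 6.08% and the ND5 bar from 13.5% to 10.1%, while the COX1 bars were 18.1% and 18.3%.

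When the mRNAs were set out by the position of tRNAs or by the stop codon, the ratios of the sets overlapped. The part of either feature in the ratios was not tested. The 4 mRNAs with a same-strand tRNA within 30 bases on both sides (ND1, ND2, COX2 and ND3) had ratios from 1.32 to 1.59, and the other 9 had ratios from 1.09 to 3.10, so CYTB and ND5, the extremes, both fell in the set with a tRNA on at most 1 side. CYTB has a tRNA at its 3′ end and ND5 at its 5′ end. The 6 mRNAs whose stop codon the poly(A) tail completes had a median ratio of 1.45 and the 7 with a full codon 1.47. These sets were made by whether the annotated length is a whole number of codons, which put COX1, ending in AGA, among the 7. In the sequences printed above, CYTB and COX3 share the lone T. By annotated length ND2, ND3 and ND4, not printed, also carry 1 base of the codon, and they had ratios from 1.33 to 1.54. ND1, which carries 2 bases, had a ratio of 1.32.

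The nuclear genes had smaller differences than the mitochondrial RNAs at the extremes, and in 1 direction with library totals. All 21 then had a log2 ratio above 0, with a median of 0.46, and 2 were past the rule. The interval of the CPM ratio lay above 1 for 18 and held 1 for POLRMT, POLG and NSUN4. The share of all genes with an interval above 1 was not computed. The median CPM ratio of all genes compared was itself 1.09, and LRPPRC, 1 of the 18, lay below it at 1.05. Under TMM, the upper quartile and the median of gene ratios the median log2 ratio of the 21 was 0.34, 0.32 and 0.30. POLRMT, POLG, NSUN4 and LRPPRC then turned below 0.

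**Figure D3:**
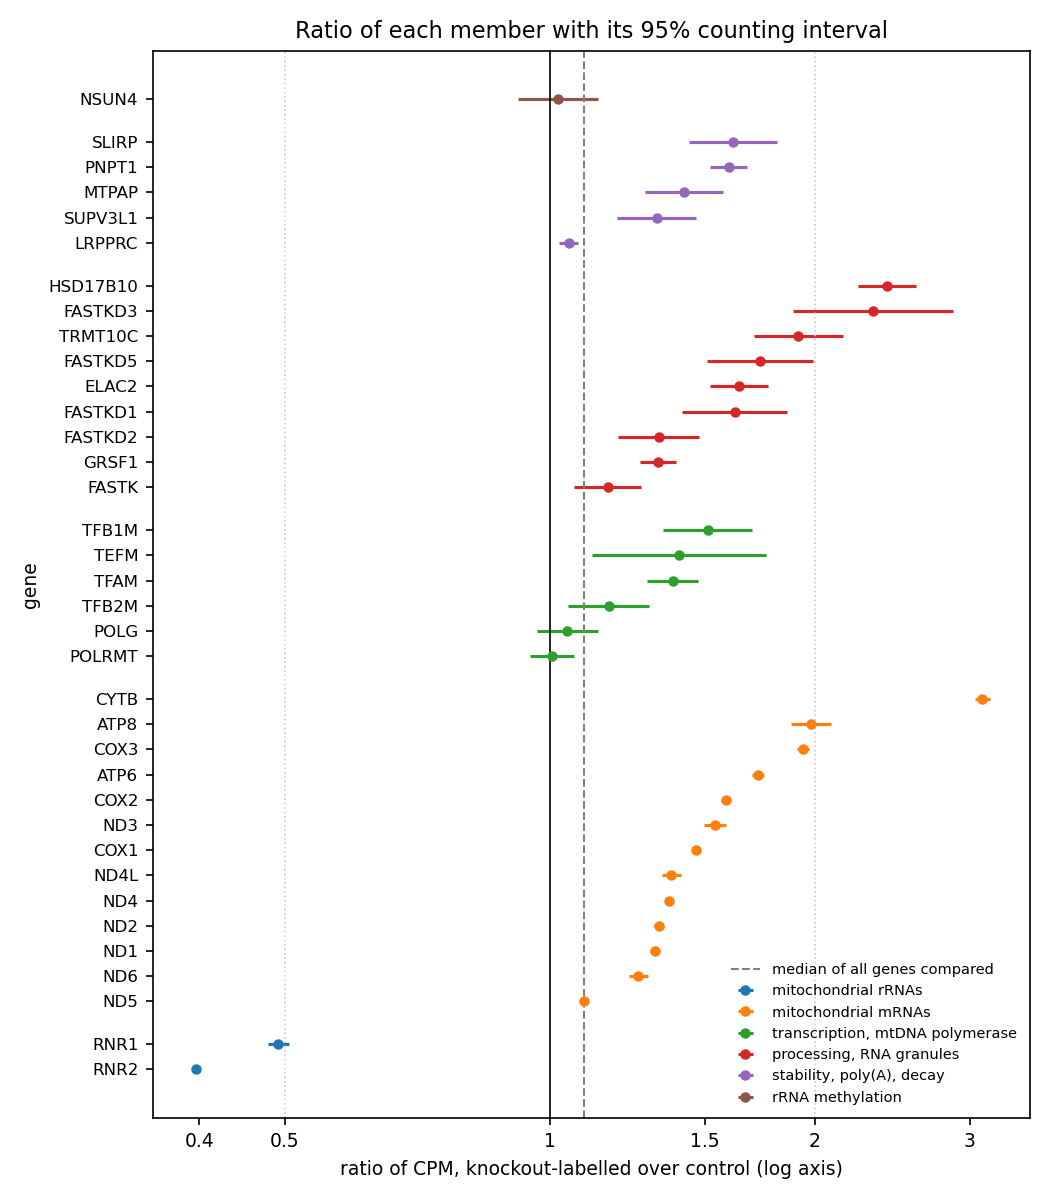
CPM ratio of the KO-labelled library over the control (log axis) for each of the 36 genes by role, with bars for the 95% counting interval. RNR1 and RNR2 lie below 1, POLRMT, POLG and NSUN4 have intervals that hold 1, and CYTB, HSD17B10 and FASTKD3 lie furthest above 1.

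Of the 6 genes of transcription and mitochondrial DNA synthesis, 0 passed the rule and their median log2 ratio was 0.33. The polymerase itself was level: POLRMT had 2693 counts (123 CPM) in control cells and 124 CPM in KO-labelled cells, a ratio of 1.01 (0.949 to 1.07). TFAM, which bends the promoter and packages mitochondrial DNA, had 80.6 and 111 CPM (1.38; 1.29 to 1.47). TFB2M, the initiation factor that opens the promoter, had 34.7 and 40.5 CPM (1.17; 1.05 to 1.30), and TEFM, the elongation factor, 6.99 and 9.81 CPM (1.40; 1.12 to 1.76).

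TFB1M, a paralogue of TFB2M that dimethylates the small-subunit rRNA, had 25.1 CPM in control cells and 38.0 CPM in KO-labelled cells (1.51; 1.34 to 1.70). POLG, the DNA polymerase, had 64.1 and 67.1 CPM (1.05; 0.967 to 1.13). POLG overlaps FANCI, a DNA repair gene that had 79.8 and 146 CPM, so without strand in the counting these reads may not be separate.

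The 9 genes of RNA cutting and of RNA granules had the highest median of the roles, 0.70, and held both nuclear genes past the rule. HSD17B10 (X 53431258 to 53434376, minus strand), a dehydrogenase that is also a subunit of mitochondrial RNase P, had 1068 counts (48.8 CPM) in control cells and 1935 counts (118 CPM) in KO-labelled cells. It was 2.42-fold higher (2.24 to 2.61). TRMT10C, the tRNA methyltransferase subunit of the same enzyme, had 22.6 and 43.3 CPM, 1.92-fold (1.71 to 2.15), with a log2 ratio of 0.91. KIAA0391 (PRORP), the catalytic subunit, had 29.8 and 42.5 CPM (1.43; 1.28 to 1.59). ELAC2, which cuts the 3′ ends of the tRNAs, had 55.6 and 91.2 CPM (1.64; 1.52 to 1.77).

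FASTKD3 (5 7859159 to 7869031, minus strand) belongs to the FASTK family, RNA-binding proteins of mitochondria that act on particular mRNAs. It had 145 counts (6.63 CPM) in control cells and 253 counts (15.4 CPM) in KO-labelled cells, 2.33-fold higher (1.89 to 2.87). Its log2 ratio of 1.11 fell just under 1 with TMM, to 0.98 with the upper quartile and 0.96 with the median of gene ratios, and to 0.81 with a pseudocount of 5. It overlaps MTRR, which had 37.5 and 49.6 CPM.

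The rest of the family spread from 1.16 to 1.73, with 0 past the rule. FASTKD5, which acts on RNA junctions that no tRNA marks, had 16.8 CPM in control cells and 29.1 CPM in KO-labelled cells (1.73; 1.51 to 1.99). It lies over UBOX5, whose ratio was 0.880. FASTKD1 had 17.4 and 28.2 CPM (1.62), FASTKD2, a granule protein that binds RNR2, 32.2 and 42.8 CPM (1.33), and FASTK, which keeps ND6 mRNA stable, 50.8 and 59.1 CPM (1.16). TBRG4 (FASTKD4), from the list of further RNA processing genes, had 62.4 and 99.4 CPM (1.59). GRSF1, which marks the granules, had 163 and 217 CPM (1.33; 1.27 to 1.39). KIAA0391 and TBRG4 were named for completing an enzyme and a family, outside the rule for named genes.

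Of the 5 genes of mRNA stability, polyadenylation and decay, 0 were past the rule and their median was 0.49. LRPPRC, which holds mitochondrial mRNAs stable and is the most counted of the nuclear genes here, had 13921 counts (636 CPM) in control cells and 668 CPM in KO-labelled cells, 1.05-fold (1.02 to 1.08). Its partner SLIRP had 24.7 and 39.9 CPM, 1.61-fold (1.44 to 1.81). MTPAP, the poly(A) polymerase that completes the stop codons, had 33.0 and 46.8 CPM (1.42; 1.28 to 1.57). PNPT1, the exonuclease of RNA decay, had 138 and 220 CPM (1.60; 1.52 to 1.68) and its helicase SUPV3L1 34.1 and 45.1 CPM (1.32; 1.19 to 1.47).

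NSUN4, which methylates the small-subunit rRNA and helps join the ribosomal subunits, had 37.2 CPM in control cells and 38.0 CPM in KO-labelled cells (1.02; 0.919 to 1.14). Other genes whose proteins act on the rRNAs or in ribosome assembly were named after their values were seen. Those given here lay on both sides and none passed the rule, but they do not stand for their lists. Of 12 measured ribosome assembly genes, 10 had a log2 ratio above 0, with a median of 0.61, and 2 (MTG1 and MPV17L2) were past the rule on the higher side. NOA1 and NGRN were the only 2 below 0. Of 23 measured RNA modification genes, 17 were above 0 and 6 below. MTERF4, the partner of NSUN4, had 20.3 and 31.9 CPM, ERAL1, a chaperone of the small-subunit rRNA, 44.7 and 65.6 CPM, and MRM2 and MRM3, which methylate the large-subunit rRNA, 26.3 and 44.7 CPM and 17.9 and 28.5 CPM. With values below those of the control were METTL15, a methyltransferase of the small-subunit rRNA (25.1 and 21.9 CPM), RPUSD4 and RPUSD3, pseudouridine synthase family members (ratios of 0.805 and 0.916), NOA1, a GTPase (0.878), and NGRN (0.912).

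The promoters of HSD17B10 and FASTKD3, the nuclear genes past the rule, are shown beside that of POLRMT, the gene nearest to no difference. Each runs from 250 bases before to 50 after the start of the gene, 5′ to 3′ on the gene's strand (RefSeq, GRCh38.p14), and capitals mark matches on either strand to CGCNTGCG, a core of sites for the factor NRF1, or CGGAAG, a core of ETS factor sites such as those of GABP.
HSD17B10, chrX:53434327-53434626, minus strand: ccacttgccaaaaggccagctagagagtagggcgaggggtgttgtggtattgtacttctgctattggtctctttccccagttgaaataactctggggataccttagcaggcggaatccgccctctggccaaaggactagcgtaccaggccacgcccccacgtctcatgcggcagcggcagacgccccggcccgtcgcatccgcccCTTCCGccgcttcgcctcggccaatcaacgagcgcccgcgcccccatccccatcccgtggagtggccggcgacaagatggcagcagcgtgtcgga
FASTKD3, chr5:7868982-7869281, minus strand: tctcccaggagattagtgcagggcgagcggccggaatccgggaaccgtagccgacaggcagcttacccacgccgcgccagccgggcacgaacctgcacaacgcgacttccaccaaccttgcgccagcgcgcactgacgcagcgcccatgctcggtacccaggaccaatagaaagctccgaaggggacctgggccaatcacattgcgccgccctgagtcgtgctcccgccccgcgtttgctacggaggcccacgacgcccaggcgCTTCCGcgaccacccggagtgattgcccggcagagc
POLRMT, chr19:633488-633787, minus strand: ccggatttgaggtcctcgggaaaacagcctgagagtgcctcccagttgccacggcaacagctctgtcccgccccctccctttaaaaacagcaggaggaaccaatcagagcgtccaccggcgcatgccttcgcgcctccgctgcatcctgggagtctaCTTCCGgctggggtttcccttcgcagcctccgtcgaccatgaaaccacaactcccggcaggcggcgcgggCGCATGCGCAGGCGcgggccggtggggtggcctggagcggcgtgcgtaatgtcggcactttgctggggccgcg
All 3 hold 1 match to the ETS core, and POLRMT holds 2 overlapping matches to the NRF1 core.

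Of the 21 nuclear genes, 20 were found in the promoter table. The NRF1 core was in 5 of them (25%: MTPAP, POLRMT, TFAM, TFB1M and TFB2M), against 10.6% of 27305 promoters of the same length. The ETS core was in 12 (60%), against 19.9%, and GGGCGG, the GC box, in 13 (65%), against 44.6%. The 5 genes with the NRF1 core had CPM ratios from 1.01 to 1.51 with a median of 1.38, and the other 15 from 1.02 to 2.42 with a median of 1.40. The 12 with the ETS core ranged from 1.01 to 2.42 with a median of 1.56, and the other 8 from 1.02 to 1.60 with a median of 1.33. The ETS set held HSD17B10, FASTKD3 and TRMT10C, the 3 highest, as well as POLRMT, the lowest, so the ranges overlapped. The 13 with the GC box had a median of 1.38 and the other 7 of 1.40. A match is a description of letters and not of binding.

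Related mitochondrial genes were also more often above 0 than below it. Over 13 lists of related genes, counted once each, 276 of 287 were measured: 18 were past the rule on the higher side, 0 on the lower side, 221 had a log2 ratio above 0 and 55 below, with a median of 0.36. The 18 are 10 under each of the other scalings, which lower the median to between 0.21 and 0.25. With library totals their share past the rule on the higher side was close to the 6.78% of all genes. On the lower side the 0 stands against 5.69% of all genes. Of all genes compared, 58.1% had a log2 ratio above 0, with a median of 0.12. The counts of each list below are to be read beside these shares of all genes.

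Of 19 measured genes of further RNA processing and turnover, 4 were higher and the median was 0.75. DDX28, a helicase of the RNA granules that acts in large-subunit assembly, had 8.18 CPM in control cells and 27.2 CPM in KO-labelled cells (3.33-fold), MTERF2, a DNA-binding protein of the termination factor family, 5.58 and 17.4 CPM (3.13-fold), and TRNT1, which adds CCA to tRNAs, 17.2 and 39.8 CPM (2.32-fold). MTERF1, the founding member of that family and outside the rule for named genes, is listed at 0 in both libraries. So are MRPS12, MRPS18B and SARS2, genes of mitochondrial translation, so these zeros are given with no limit on the RNA.

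Of 23 RNA modification genes, 3 were higher and the median was 0.42. TRMU, which thiolates mitochondrial tRNAs, had 284 counts in control cells and 650 counts (39.6 CPM) in KO-labelled cells (3.05-fold), NSUN2, a cytosine methyltransferase of tRNAs, 84.5 and 209 CPM (2.48-fold), and TRMT1, a guanosine methyltransferase, 48.6 and 99.5 CPM (2.05-fold). TRMT1 fell short of the rule under the other scalings.

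Of 19 genes of mitochondrial DNA maintenance, 3 were higher and the median was 0.30. FEN1, a flap nuclease of DNA replication in the nucleus as well, had 50.4 CPM in control cells and 106 CPM in KO-labelled cells (2.10-fold), and fell short under the other scalings. ATAD3A, a membrane ATPase of the nucleoid, had 29.4 and 71.9 CPM (2.44-fold) and ATAD3B 12.4 and 45.2 CPM (3.63-fold). These 2 are near-identical neighbours, so how their reads were split is uncertain.

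The translation side was mostly within the rule. Of 78 measured mitochondrial ribosomal protein genes, 1 was higher (MRPL20, 38.7 CPM in control cells and 78.7 CPM in KO-labelled cells) and the median was 0.31. Of 12 ribosome assembly genes, 2 were higher (MTG1, a GTPase, 18.5 and 46.0 CPM; MPV17L2, 11.7 and 24.7 CPM). Of 18 aminoacyl-tRNA synthetases, 2 were higher (MARS2, 12.2 and 35.5 CPM; CARS2, 23.4 and 48.8 CPM). MRPL20, MPV17L2 and CARS2 fell short under the other scalings. Of 15 translation factors 0 were, and TUFM, the elongation factor, had 302 and 422 CPM and MTIF2, an initiation factor, 202 and 219 CPM.

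None of the 71 measured nuclear subunits of complexes I, III, IV and V passed the rule, and 59 had a log2 ratio above 0, with a median of 0.35. For complex I, NDUFV1 had 178 CPM in control cells and 201 CPM in KO-labelled cells, and NDUFS8 115 and 136 CPM. For complex IV, COX4I1 had 247 and 275 CPM and COX7C 166 and 146 CPM, where COX7C was the only 1 of 11 measured below 0. ATP5B, the catalytic subunit of ATP synthase, had 968 and 1147 CPM, and ATP5A1 635 and 746 CPM. Summed, the nuclear subunits had a ratio of 1.19 (1.18 to 1.20). The mRNAs from the mitochondrial genome had 2.98 counts for each of theirs in control cells and 3.64 in KO-labelled cells.

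Of 16 measured regulators of mitochondrial biogenesis, 2 were higher. PPARGC1A, a coactivator that drives nuclear genes of mitochondria, had 48 counts (2.19 CPM) in control cells and 140 counts (8.53 CPM) in KO-labelled cells, 3.89-fold higher (2.78 to 5.52), and fell short of the rule with a pseudocount of 5. PPARGC1B, its relative, had 8.41 and 18.2 CPM (2.16-fold) and fell short under the other scalings too. The DNA-binding factors it works with were closer to level: NRF1 had 21.0 and 27.9 CPM and GABPA 48.7 and 47.5 CPM, both named outside the rule.

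**Figure D4:**
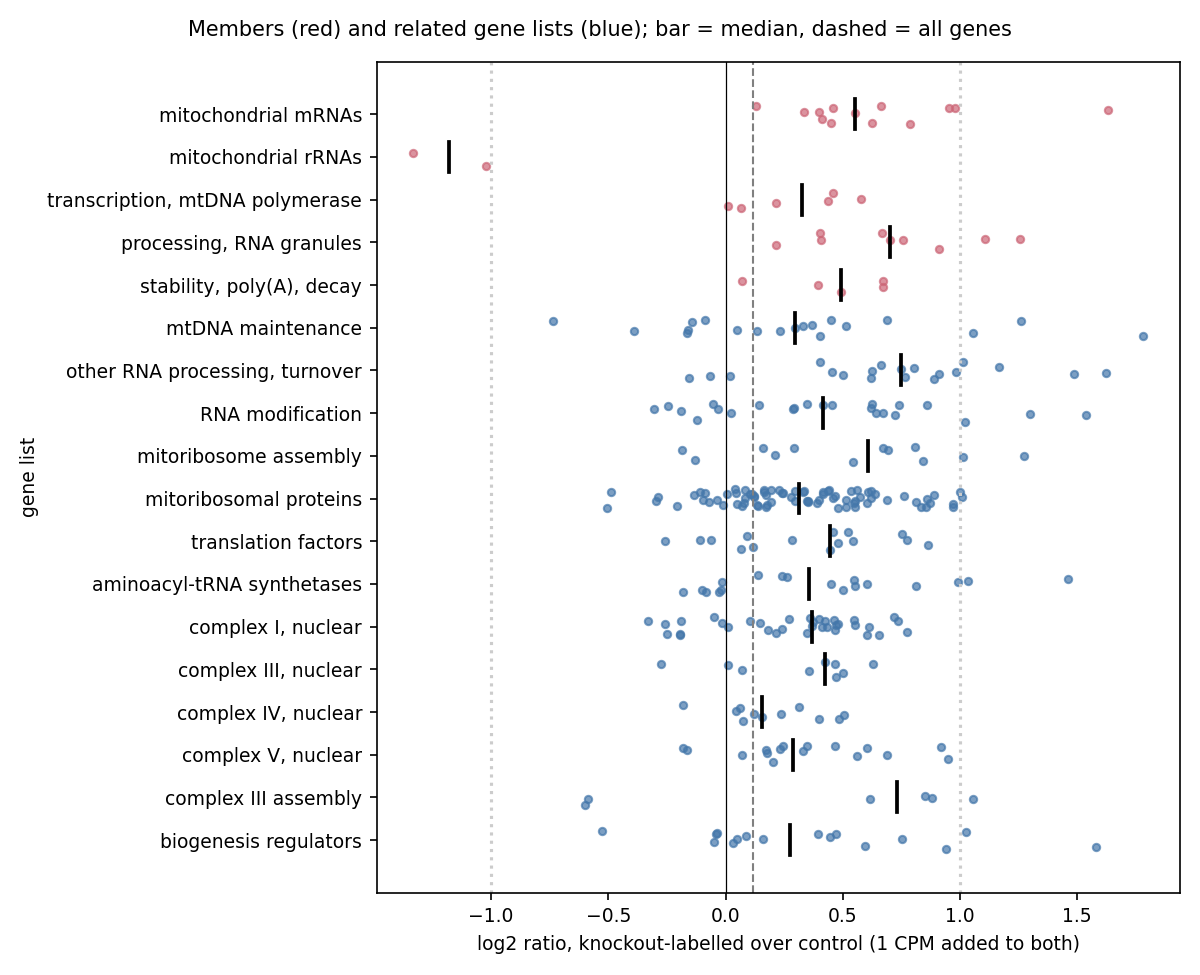
Log2 ratio of the KO-labelled library over the control, 1 CPM added to both, for the 36 genes other than NSUN4 by role (red) and the 13 related lists (blue). Each list has 1 point per measured gene, and MRPL12, in both the RNA processing and the ribosomal protein list, is drawn in each. Black bars are medians, the dashed line is the median of all genes (0.12) and dotted lines are the 2-fold rule; RNR1 and RNR2 are the only points beyond the lower dotted line.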

How the data were processed

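The authors deposited raw counts per gene for 2 libraries, whole numbers on 58173 rows with no normalization. TopHat and GRCh38 are named, per the submitters' processing notes; of the counter, annotation and use of strand nothing is given in the sources used here. Rows of a symbol were summed and scaled by the library total to CPM. RNR1, RNR2, ND1 and the like were read as mitochondrial genes from the RefSeq table (GRCh38.p14), whose mitochondrial coordinates equal those of the GENCODE annotation.

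Ratios of CPM carry exact (Clopper-Pearson) 95% intervals conditional on the summed count, and shares exact binomial ones. Changes of a ratio within libraries carry exact intervals, or Woolf's for large counts (CYTB or ND6 per ND5, ND4L per ND4). Intervals of an mRNA against the other 12 take the summed counts of those 12 as fixed totals, so they leave out the counting error of that sum. A gene was past the rule where log2((knockout CPM + 1) / (control CPM + 1)) was at least 1 or at most -1 and its mean at least 1 CPM. The members, lists and tests were chosen with earlier results of these data known. All 36 genes were accounted for. Of each of the 13 related lists, the colon epithelium markers and nuclear rRNA, the text names up to 3 genes past the rule with the largest ratio. Where none passed, it names the 2 with the highest mean, and other names are said to lie outside it. Fibroblast and blood markers and the MTRNR2L genes are given as sums, and of the nuclear RNAs without a tail only RN7SL1 is named. The calculation was checked on simulated counts that held 3-fold changes and counting error only, so the check says nothing of spread between cultures.

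Alternatives were TMM and upper quartile scaling (edgeR 4.0.16), the median of gene ratios (DESeq2 1.42.0), pseudocounts of 0.1 and 5, no minimum or a mean of 5 CPM, folds of 1.5 and 3, symbols on a single row, and totals without mitochondrial genes and nuclear rRNA. The last was applied to single genes only after the data were seen. Neither edgeR nor DESeq2 was used for a test. Python 3.11.15 and scipy 1.17.1 were used. The promoter of FASTKD5 was not used.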

Additional observations from a re-analysis of the deposited data

How the results depend on the processing

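No paired analysis was possible because each group has 1 library, and for the same reason no replicate could be left out. The results with a call kept their direction, but with TMM, the upper quartile and the median of gene ratios POLRMT, LRPPRC, POLG and NSUN4, none past the rule, turned below 0, and so did ND5 with the last 2. The 857 genes higher and 719 lower became 601 and 879 with TMM, 574 and 917 with the upper quartile and 544 and 945 with the median of gene ratios, so that more genes were lower than higher; they became 426 and 371 with a pseudocount of 5, 2567 and 1674 at 1.5-fold, and 118 and 229 at 3-fold. Of the 36 genes, 14 were higher at 1.5-fold and 1 at 3-fold, where 0 were lower. The ratio of the mRNA share was 1.34 with TMM, 1.32 with the upper quartile, 1.30 with the median of gene ratios and 1.46 with totals that leave out mitochondrial genes and nuclear rRNA, the same at 3 digits as with all counts. That of the rRNA share was 0.373, 0.368 and 0.364 with the 3 scalings, against 0.406. The change in rRNA per mRNA count was 0.289 without CYTB, 0.273 for RNR2 alone and 0.338 for RNR1 alone, against 0.279. The scalings differ by a constant shift of the log2 CPM ratio, made somewhat smaller at low CPM by the added 1 CPM, which accounts for their effect. Fewer or more genes past the rule at other folds follow from the fold. For single genes, 377 values kept their side of the rule, 11 passed it at 1.5-fold and 8 no longer did. Depth limits TEFM and FASTKD3, the least counted of the nuclear genes.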

Other observations

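UQCRC2 and NDUFS1, core subunits of complexes III and I, were picked out after their values were seen. UQCRC2 had 66 counts (3.02 CPM) in control cells and 68 counts (4.14 CPM) in KO-labelled cells, and NDUFS1 124 counts (5.67 CPM) and 129 counts (7.86 CPM). UQCRC1, which pairs with UQCRC2 in the complex, had 247 and 260 CPM. Each of UQCRC2 and NDUFS1 stands on 2 rows of the files. Whether the counting lost reads of these 2 genes was not tested, and their values alone are not read as levels of their RNA. Both genes stay in the counts, medians and sums of nuclear subunits above. UQCRC2 is also part of the CYTB count per nuclear complex III count.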
